A study of Solanum lycopersicum with 10 samples.

Results

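Untreated root tips and leaf primordia of tomato (Solanum lycopersicum, line M82) were set against each other, as mock-treated root tips (n = 2) and mock-treated leaf primordia (n = 3). These are the 5 control libraries among the 10 of a study of the auxin response, and the loci compared are the 14640 of 35767 listed that reached a normalized count of 10 in at least 2 of the 5. Root tips were the terminal 1 cm of the root, taken 4 days after germination, after 3 h of treatment, from plate-grown seedlings kept under constant light at 22 °C. Leaf primordia were pools of 15 primordia of leaf 5, at the stage called P5, from greenhouse plants aged 3 weeks that were sprayed 3 h earlier. The other 5 libraries are root tips on 1 µM 2,4-D (n = 2) and leaf primordia sprayed with 1 µM picloram (n = 3), both synthetic auxins, and are used here as separate libraries of the same tissues. Tissue, plant age, growth conditions and mode of application differ together between the groups and cannot be told apart. Nothing in the labels says that replicates are separate plants or pools, so p-values measure only the spread between these libraries, which may be technical.

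The root tip holds the root meristem and the cells that leave it, among them the cap, the epidermis, the endodermis and the young vascular tissue. AP2-type and GRAS transcription factors are known to keep its stem cells and to pattern its ground tissue. A P5 leaf primordium of tomato is a young compound leaf in which leaflets form, blades expand and chloroplasts begin to be built; YABBY, class III homeodomain leucine zipper (HD-ZIP III) and CINCINNATA-like TCP (CIN-TCP) factors are known to pattern the blade and to time its maturation. No cells were separated, so a lower value can come from fewer cells of a type or from less RNA per cell, and these cannot be told apart.

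The table names loci by Solyc identifier with no gene symbol. The 20 gene lists used here hold 209 identifiers recalled from published gene families, of which 207 are in the table and 136 were tested. Roles below belong to a list as a whole and were not checked locus by locus. For 119 of 122 identifiers with a recalled symbol, a RefSeq gene of that symbol lies on the chromosome that the identifier gives. None of the root patterning, suberin and endodermis, HD-ZIP III or clock identifiers was among the 122, and 1 strigolactone identifier was. In the mineral uptake list the chromosome was the same for 10 of 12 checked.

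Library totals were 2.95 and 2.87 M normalized counts in mock root tips, against 1.94, 2.06 and 1.93 M in mock leaf primordia. The 100 most abundant loci took 25.6% and 25.2% of the root libraries, against 18.6% to 20.6% of the leaf libraries. Mock root tips had 12014 and 12105 loci at 10 or more, and mock leaf primordia 13176 to 13355. Loci abundant in the other tissue were above 0 more often in the mock libraries numbered 2. In root tips, 63 loci listed at 0 in mock replicate 1 averaged at least 200 in mock leaf; 36 of them were above 0 in root replicate 2, with a sum of 129 there against 25910 to 29309 per mock leaf library. In mock leaf, 57 loci listed at 0 in replicate 1 averaged at least 200 in mock root; their sums were 40278 and 37047 in mock root, against 504 and 55.8 in mock leaf replicates 2 and 3, with 343 to 380.4 in the picloram leaf libraries. In each case replicate 1 was at 0 by the choice of loci. The part of these values in the results was not tested, and calls without the libraries numbered 2 are given below.

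The question of how far the untreated tissues differ was put to every tested locus, with the moderated model of limma on log2(value + 1) and a Benjamini-Hochberg adjusted p under 0.05 as the call. The tissues differed at most loci, 9361 of 14640 (63.9%). Root tips were higher at 5013 (34.2%) and lower at 4348 (29.7%), and the median difference over all tested loci was 0.12 (log2, root minus leaf). The lower calls were the larger ones, with a median of -2.11 against 1.33 for the higher calls. Root tips were lower by at least 3 (log2) at 1507 called loci (10.3%) and higher by that much at 713 (4.87%). The 1507 loci made up 0.24% and 0.34% of the mock root libraries, against 13.1% to 13.96% of the mock leaf libraries. The 713 loci made up 5.93% and 5.66% of the mock root libraries, against 0.32% to 0.46% of the mock leaf libraries. Scaling all libraries to the same total, in place of the authors' normalization, moved the median of all loci to -0.47 and the split to 3011 higher and 6490 lower; median ratios recomputed over the mock libraries moved it to -6.0e-05, with 4557 higher and 4714 lower. Without the mock libraries numbered 2, 6727 loci were called, 3247 higher and 3480 lower.

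Most of these differences lay between loci that both tissues expressed. Of 10166 loci that reached 10 in both mock root libraries and in at least 2 mock leaf libraries, 3966 were called higher in root tips and 1864 lower. Another 1279 loci reached the minimum in root tips only, with 1047 called higher, and 3020 in leaf only, with 2484 called lower. The calls took 81.9% of the root-only loci and 82.3% of the leaf-only loci, and such a locus entered only through the tissue where it was high. Loci listed at 0 in all 3 mock leaf libraries with a root mean of at least 10 numbered 204, and loci listed at 0 in both mock root libraries with a leaf mean of at least 10 numbered 465. Of the 465, 401 also averaged at least 10 in picloram-treated leaf and 247 were at 0 in both 2,4-D root libraries. Of the 204, 169 averaged at least 10 in 2,4-D root tips and 136 were at 0 in all 3 picloram leaf libraries. The minimum asked for 2 of 2 mock root libraries but for 2 of 3 mock leaf libraries. A listing at 0 asked for all 3 mock leaf libraries but for only 2 mock root libraries. Both rules make a leaf-only locus easier to find, so the counts of the 2 tissues are not on equal terms.

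**Figure D1:**
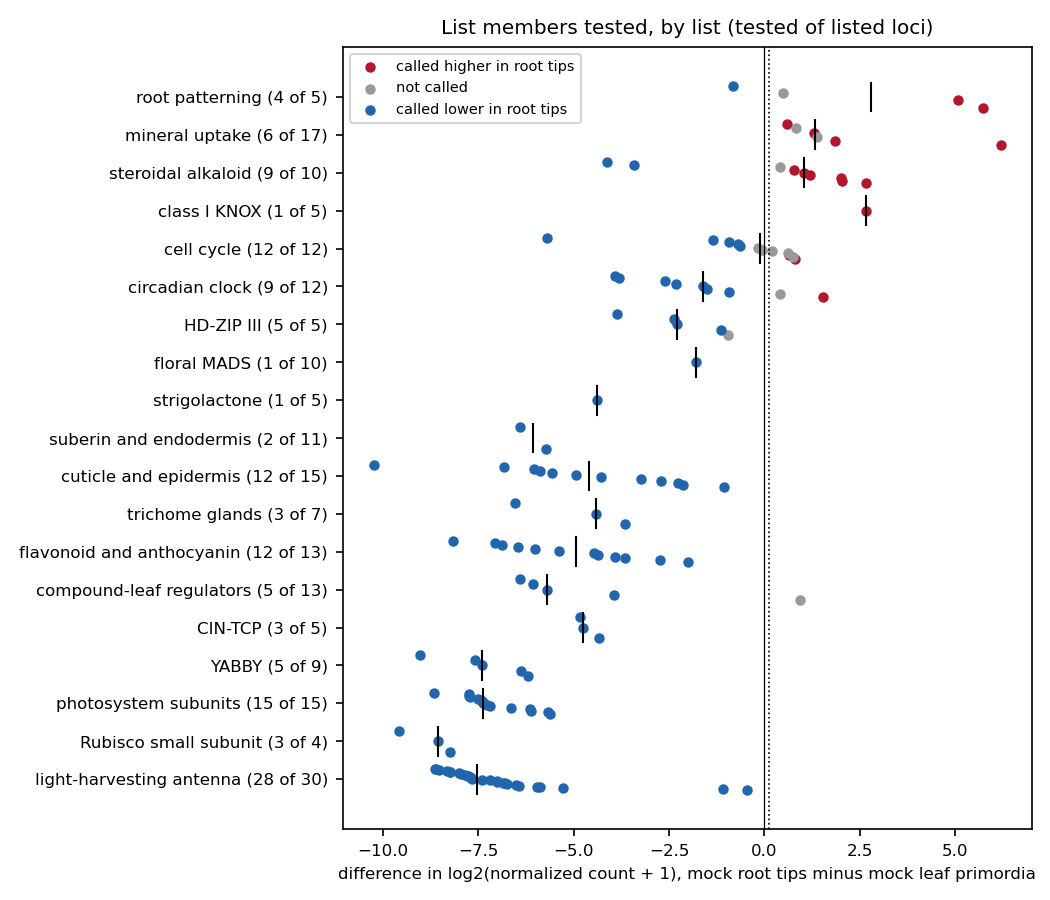
Difference in log2(normalized count + 1), mock root tips minus mock leaf primordia, for each tested member of 19 lists (1 point per locus, coloured by call), with the number tested of those listed in brackets. Short vertical bars are list medians and the dotted line is the median of all tested loci, 0.12; the 3 photosynthesis lists have medians of -8.56 to -7.37, and points right of 0 are mostly of the root patterning, mineral uptake and steroidal alkaloid lists.

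Among the lists for the root, the list of 5 root stem cell niche and ground tissue regulators (GRAS, AP2 and WOX types) held 2 loci far higher in root tips. Solyc05g051380 had 238 and 177 normalized counts in mock root tips, against 8.18, 6.02 and 2.51 in mock leaf primordia. Solyc11g061750 had 60.3 and 73.5 in mock root tips, against 1.12, 0 and 0 in mock leaf. Both were higher in root tips, by 5.08 ± 0.45 and 5.72 ± 0.45 (log2 difference ± SE; adjusted p = 1.22e-06 and 4.7e-07 by limma). Another member went the other way: Solyc10g074680 had 124 and 121 in mock root tips, against 214, 236 and 199 in mock leaf, a difference of -0.81 ± 0.15 (adjusted p = 0.000452 by limma). Solyc02g092370 had 11.9 and 11.2 in mock root tips and 9.02, 7.16 and 7.5 in mock leaf, which did not pass the test (adjusted p = 0.2 by limma). Solyc03g096300 had 3.49 and 6.01 in the 2,4-D root tips and was listed at 0 in all 5 mock libraries. The list thus had 2 members called higher and 1 lower of 4 tested, with a median difference of 2.79 against 0.12 over all loci. Of the 4, 3 reached the minimum in root tips only, where 81.9% of all such loci were called higher. With either mock root library left out, loci seen in root tips alone could not reach the minimum in 2 libraries, so neither of these 2 was then tested, and the count of higher calls was 0.

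The list of 17 mineral uptake loci, for iron, ammonium, phosphate, nitrate, potassium and sodium transport and their control, was mostly quiet in these root tips. Of its members 16 are in the table and 6 were tested; 4 were higher in root tips, where 34.2% of all loci were, none was lower, and the other 10 had at most 7.5 in any mock root library. Of the 6, 3 reached the minimum in root tips only. The strongest was Solyc06g051550, with 171 and 149 in mock root tips against 0, 9.59 and 0 in mock leaf, a difference of 6.19 ± 0.86 (adjusted p = 5.3e-05 by limma). Its only mock leaf value above 0 lies in leaf replicate 2. Without that library the difference was 7.33, a rise fixed in advance because the mock leaf values left were 0 and 0. Solyc09g090730 had 36.8 and 45.3 in mock root tips against 13.1, 6.92 and 12.9 in mock leaf, and Solyc09g090070 had 37 and 38 against 15.4, 14.4 and 14.1 in mock leaf. Solyc11g044540, the smallest change, had 80.9 and 87.4 in mock root tips against 58.3, 52.9 and 55.8 in mock leaf. With library totals made equal, the last 2 were no longer called (adjusted p = 0.0514 and 0.87 by limma) and 2 members were called higher. The count was also 2 without mock root replicate 2 and with a minimum of 50.

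The lists of suberin and endodermis loci and of strigolactone synthesis had no member called higher in root tips. Suberin seals endodermal and wound cells, and strigolactones are hormones that roots also release. In the suberin and endodermis list 9 of 11 members had at most 1.7 in the mock root libraries and were not tested, among them Solyc03g097500 with 30.6 in mock leaf replicate 2. The other 2 were lower in root tips: Solyc01g094700 had 8.71 and 3.38 in mock root tips against 341, 382 and 317 in mock leaf, and Solyc01g079240 had 2.55 and 5.52 against 495, 352 and 392 in mock leaf. The differences were -5.73 ± 0.37 and -6.41 ± 0.25 (adjusted p = 1.1e-07 and 3.11e-09 by limma). Both loci reached the minimum in leaf only, where 82.3% of all such loci were called lower, against 29.7% over all loci. Neither identifier was checked by symbol, so a part of these 2 loci in suberin is not established here. In the strigolactone list 4 of 5 members, Solyc01g090660, Solyc08g066650, Solyc09g065750 and Solyc02g084930, stayed at or under 3.44 in every mock library. The fifth, Solyc08g062950, was erratic within groups, with 0 and 0 in mock root tips, 0, 97 and 90.1 in mock leaf, with 78.3 and 34.2 in 2,4-D root tips and 0 in all 3 picloram leaf libraries. Its call (adjusted p = 0.0218 by limma) was lost with the 5 mock libraries alone (adjusted p = 0.0718 by limma), and its groups overlap. This locus also reached the minimum in leaf only.

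Steroidal alkaloids are the bitter defence compounds of tomato, made from cholesterol by enzymes many of whose genes lie clustered on a chromosome. Of the 10 loci listed, 9 were tested, of which 1 reached the minimum in leaf only. Over all tested loci 34.2% were higher in root tips and 29.7% lower. Among loci that reached the minimum in both tissues the shares were 39.0% and 18.3%. Of the 9 alkaloid loci 6 were higher in root tips, 2 were lower and 1 was not called. The 5 members of the chromosome 7 interval from Solyc07g043420 to Solyc07g043500 were all among the 6. Solyc07g043500 had 433 and 478 in mock root tips against 73.4, 63.9 and 75.2 in mock leaf, a difference of 2.67 ± 0.18 (adjusted p = 1.34e-07 by limma). Solyc07g043490 had 273 and 239 in mock root tips against 55, 58.9 and 71.6 in mock leaf. Solyc07g043460 had 1508 and 1401 in mock root tips against 370, 348 and 362 in mock leaf. These 3 differed by 2.01 to 2.67 (log2). The most abundant member, Solyc07g043420, had 7036 and 5810 in mock root tips against 4178, 3244 and 3746 in mock leaf, a difference of 0.79 ± 0.17 (adjusted p = 0.00139 by limma). That direction changed with the scaling: the difference was 0.23 and no longer called with totals made equal, where 4 members were called higher, and -0.15 after quantile normalization.

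2 members of the same list ran the other way, of which 1 was still tested and called with a minimum of 50. Solyc12g006470 had 44.5 and 32.3 in mock root tips against 767, 573 and 697 in mock leaf (-4.12 ± 0.30, adjusted p = 2.44e-07 by limma), and Solyc07g062520 had 1.69 and 2.22 against 42.6, 26 and 25.3 in mock leaf (-3.42 ± 0.40, adjusted p = 1.43e-05 by limma). In Solyc12g006460, next to the first of these by identifier, mock root tips had 347 ± 9.41 (SD, n = 2) and mock leaf 261 ± 31 (SD, n = 3), which did not pass the test (adjusted p = 0.147 by limma). The summed list was 10149 and 8750 in mock root tips against 5959, 4767 and 5495 in mock leaf, of which Solyc07g043420 alone gave most.

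**Figure D2:**
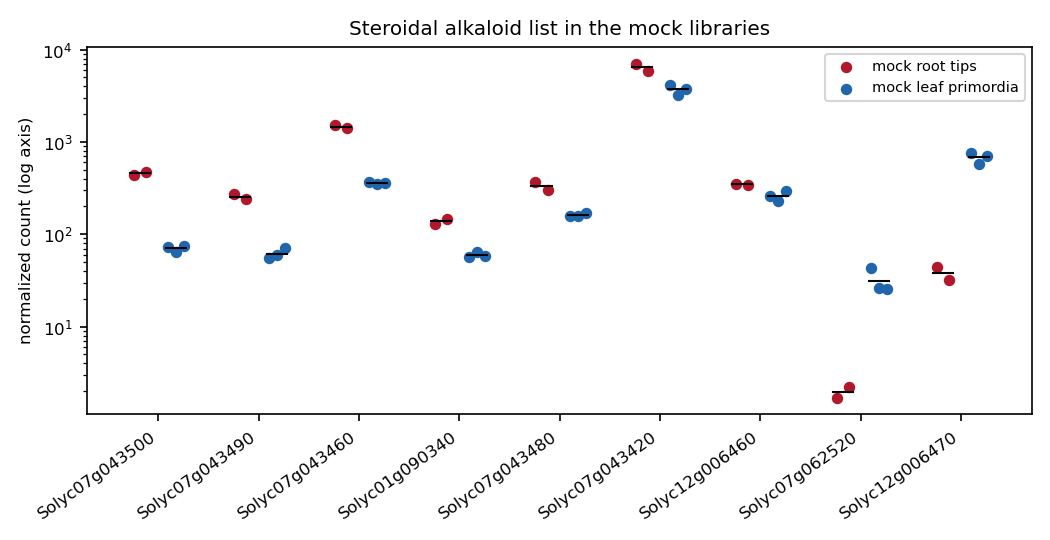
Normalized counts on a log axis for the 9 tested loci of the steroidal alkaloid list, with mock root tips (2 points) left of mock leaf primordia (3 points) and a bar at each mean. The loci run from the highest difference, 2.67, to the lowest, -4.12; the first 7 have both root libraries above all 3 leaf libraries, which held at 40.8% of all tested loci, and the last 2 have them below.

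Photosynthesis loci were mostly near 0 in root tips and abundant in leaf primordia. The lists hold 30 antenna proteins of light harvesting, 4 small subunits of Rubisco, the carbon-fixing enzyme, and 15 nuclear-encoded photosystem subunits and plastocyanin. All 46 tested were lower in root tips, 28, 3 and 15 of them, with medians of -7.53, -8.56 and -7.37 against 0.12 over all loci; only 2 of the antenna loci, none of the Rubisco loci and 1 of the photosystem loci reached 10 in both mock root libraries. The other 43 entered through leaf alone, where 82.3% of all such loci were called lower, against 29.7% of all loci. Solyc03g034220, the most abundant Rubisco locus, had 4.23 and 48.8 in mock root tips against 6459, 6454 and 5413 in mock leaf. Solyc02g085950 had 4.25 and 14.3 in mock root tips against 2497, 2818 and 2762 in mock leaf, and Solyc02g063150 had 0 and 4.43 against 1854, 1810 and 1658. All 3 were higher in root replicate 2 than in root replicate 1. The differences were -8.56 ± 0.84, -8.23 ± 0.43 and -9.57 ± 0.80 (adjusted p at most 3.08e-06 by limma). The fourth Rubisco member, Solyc07g017950, had at most 4.21 in any mock library.

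Among antenna loci, Solyc02g070940 had 0 and 10.5 in mock root tips against 1027, 1379 and 1700 in mock leaf, Solyc03g005770 had 0 and 1.17 against 428, 603 and 615, and Solyc05g056070 was at 0 in both root libraries against 307, 442 and 426. Solyc07g047850, the most abundant, had 4.2 and 16.6 in mock root tips against 3086, 3052 and 3067 in mock leaf. The 2 untested antenna loci had at most 2.43 in any mock library. Of the photosystem loci, Solyc08g013670 had 0.84 and 6.53 in mock root tips against 1454, 1733 and 1324 in mock leaf, and Solyc06g082940 had 8.48 and 28.6 against 2978, 3606 and 1959. The same gap was seen at Solyc06g074200 (-7.75 ± 0.56), Solyc07g066150 (-7.75 ± 0.70) and Solyc09g063130 (-7.71 ± 0.91), again with the higher root value in replicate 2. Antenna genes come in tandem copies of near-identical sequence; how the authors' counting shared reads among copies is not given, so values of single copies are uncertain while the direction was the same for all tested copies.

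2 antenna members, looked at after their values were seen, were not low in root tips. Solyc12g011450 had 1194 and 1259 in mock root tips against 1826, 1679 and 1568 in mock leaf, a difference of -0.46 ± 0.10 (adjusted p = 0.00204 by limma). Solyc01g105050 had 379 and 393 in mock root tips against 812, 854 and 805 in mock leaf, a difference of -1.09 ± 0.11 (adjusted p = 3.33e-06 by limma). Both root libraries were below all leaf libraries at both loci, as they were at 34.9% of all tested loci, by 1.38-fold and 2.13-fold on the log2(value + 1) scale, where the other 26 tested antenna loci differed by -8.63 to -5.27 (log2). All 49 loci of the 3 lists in the table summed to 1665 and 1987 in mock root tips. Their sums in mock leaf were 41895, 45740 and 41727. With Solyc12g011450 and Solyc01g105050 left out, the other 47 summed to 91.6 and 335 in mock root tips. Those 47 summed to 39258, 43207 and 39355 in mock leaf. The root sums of the 47 loci were 0.226% and 0.825% of the mean of the mock leaf libraries. In the 2,4-D root tips the order was the same, 96.7 in replicate 1 and 446 in replicate 2. Leaving out the libraries numbered 2 is no check of this gap, since it removes the mock root library with the higher sum.

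**Figure D3:**
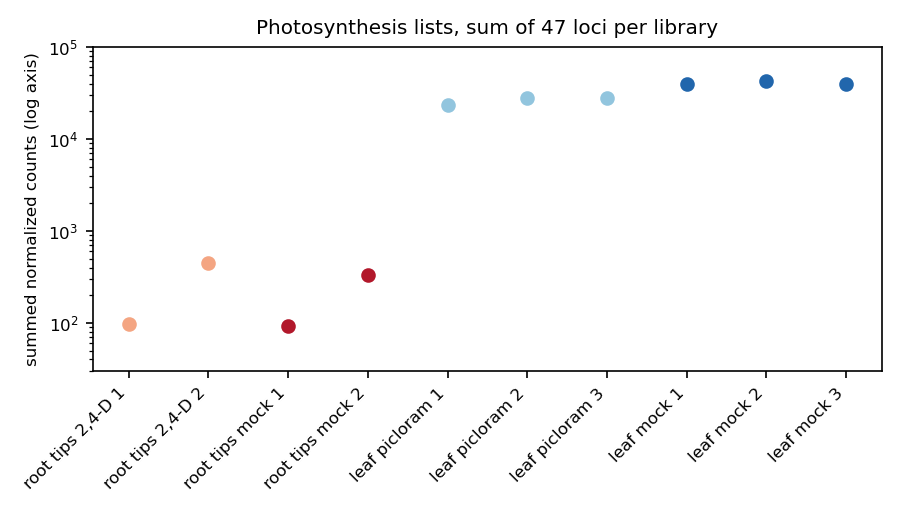
Summed normalized counts of 47 photosynthesis loci per library on a log axis (1 point per library), without Solyc12g011450 and Solyc01g105050. Mock root tips had 91.6 and 335 and mock leaf primordia 39258 to 43207; the root libraries numbered 2 lie above those numbered 1 under both treatments.

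Most tested regulators of leaf form were at or near 0 in root tips. YABBY factors, which mark the lower face and margin of leaf blades and are known from shoot organs, were lower in all 5 of the 9 members tested, with 4 of the 5 at 0 in both mock root libraries. All 5 had reached the minimum in leaf only, where 82.3% of all loci were called lower, against 29.7% over all loci. Solyc01g091010 was at 0 in both mock root libraries against 449, 578 and 536 in mock leaf. Solyc08g079100 had 0.855 and 0 in mock root tips against 236, 215 and 340 in mock leaf. Solyc11g071810 and Solyc07g008180 were at 0 in both mock root libraries against 75, 71.1 and 107 and against 166, 141 and 205 in mock leaf. The median difference was -7.41, and the other 4 members had at most 4.84 in any mock library. Among the CIN-TCP factors, which end cell division in the blade, 3 of 5 were tested, all through leaf alone, and all were lower in root tips; with a minimum of 50 none was tested and the count was 0. Solyc08g048390 had 0 and 1.12 in mock root tips against 46.9, 50.7 and 27.5 in mock leaf. Solyc07g053410 had 0.843 and 0 against 31.4, 39.7 and 35.9 in mock leaf, and Solyc08g048370 was at 0 in both root libraries against 18.4, 16.9 and 22. The remaining members, Solyc07g062680 and Solyc10g008780, had at most 2.55 in any mock library.

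The list of 13 compound-leaf regulators had 4 members called lower in root tips among 5 tested, and these 4 reached the minimum in leaf only, where 82.3% of all such loci were called lower. Solyc09g010840 had 0.854 and 1.12 in mock root tips against 234, 125 and 156 in mock leaf, a difference of -6.40 ± 0.31 (adjusted p = 1.35e-08 by limma). Solyc05g009380 was at 0 in both mock root libraries against 41, 75.5 and 92.1 in mock leaf, and Solyc07g062840 had 0 and 1.11 against 69.7, 72.2 and 80.2. Solyc05g007870 was the lowest of the 4 in leaf, with 0 and 1.12 in mock root tips against 26.1, 16.6 and 22.4 in mock leaf. The fifth, Solyc06g074910, had 16.2 and 17.3 in mock root tips against 7.53, 11.2 and 6.76 in mock leaf, which did not pass the test (adjusted p = 0.199 by limma). The other 8 were not tested, and 7 of them had at most 8.4 in any mock library.

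HD-ZIP III factors, which act in the upper leaf face, in meristems and in xylem, were present in both tissues and lower in root tips at 4 of 5 loci. Lower calls took 29.7% of all tested loci and 18.3% of those that reached the minimum in both tissues. Of the 5, 1 reached the minimum in leaf only, Solyc08g066500. Solyc02g024070 had 11 and 10 in mock root tips against 183, 140 and 178 in mock leaf (-3.86 ± 0.18, adjusted p = 1.11e-08 by limma). Solyc12g044410 had 50 and 49.5 in mock root tips against 273, 263 and 248 in mock leaf, and Solyc03g120910 had 48.3 and 48.9 against 265, 250 and 214. Solyc11g069470 differed less, with 78.5 and 58.2 in mock root tips against 173, 137 and 145 in mock leaf. In all 4 the groups do not overlap. Solyc08g066500 had 8.63 and 21.5 in mock root tips against 17.5, 28.6 and 40.5 in mock leaf (adjusted p = 0.064 by limma); it was called lower in root tips when totals were made equal (adjusted p = 0.00853 by limma).

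Class I KNOTTED1-like homeobox (KNOX) factors keep meristem cells undifferentiated and, in tomato, act in leaflet formation. Only 1 of 5 listed loci was tested, and it was higher in root tips: Solyc05g005090 had 30.7 and 33.4 in mock root tips against 6.44, 6.11 and 1.66 in mock leaf, a difference of 2.67 ± 0.51 (adjusted p = 0.000686 by limma). It reached the minimum in root tips only, where 81.9% of all such loci were called higher, against 34.2% over all loci. It was not tested when either root library was left out. The other 4, Solyc04g077210, Solyc02g081120, Solyc01g100510 and Solyc06g072480, had at most 13.2 in mock root tips and 10.9 in mock leaf primordia. Markers of the shoot apical meristem were near 0, with 6 of 6 untested, at most 0.852 in mock root tips and 13.9 in mock leaf. Of 10 floral MADS-box loci 9 had at most 3.35 in any mock library; Solyc02g084630 had 20.9 and 27.6 in mock root tips against 84.7, 95.6 and 76.9 in mock leaf (-1.79 ± 0.24, adjusted p = 4.43e-05 by limma).

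**Figure D4:**
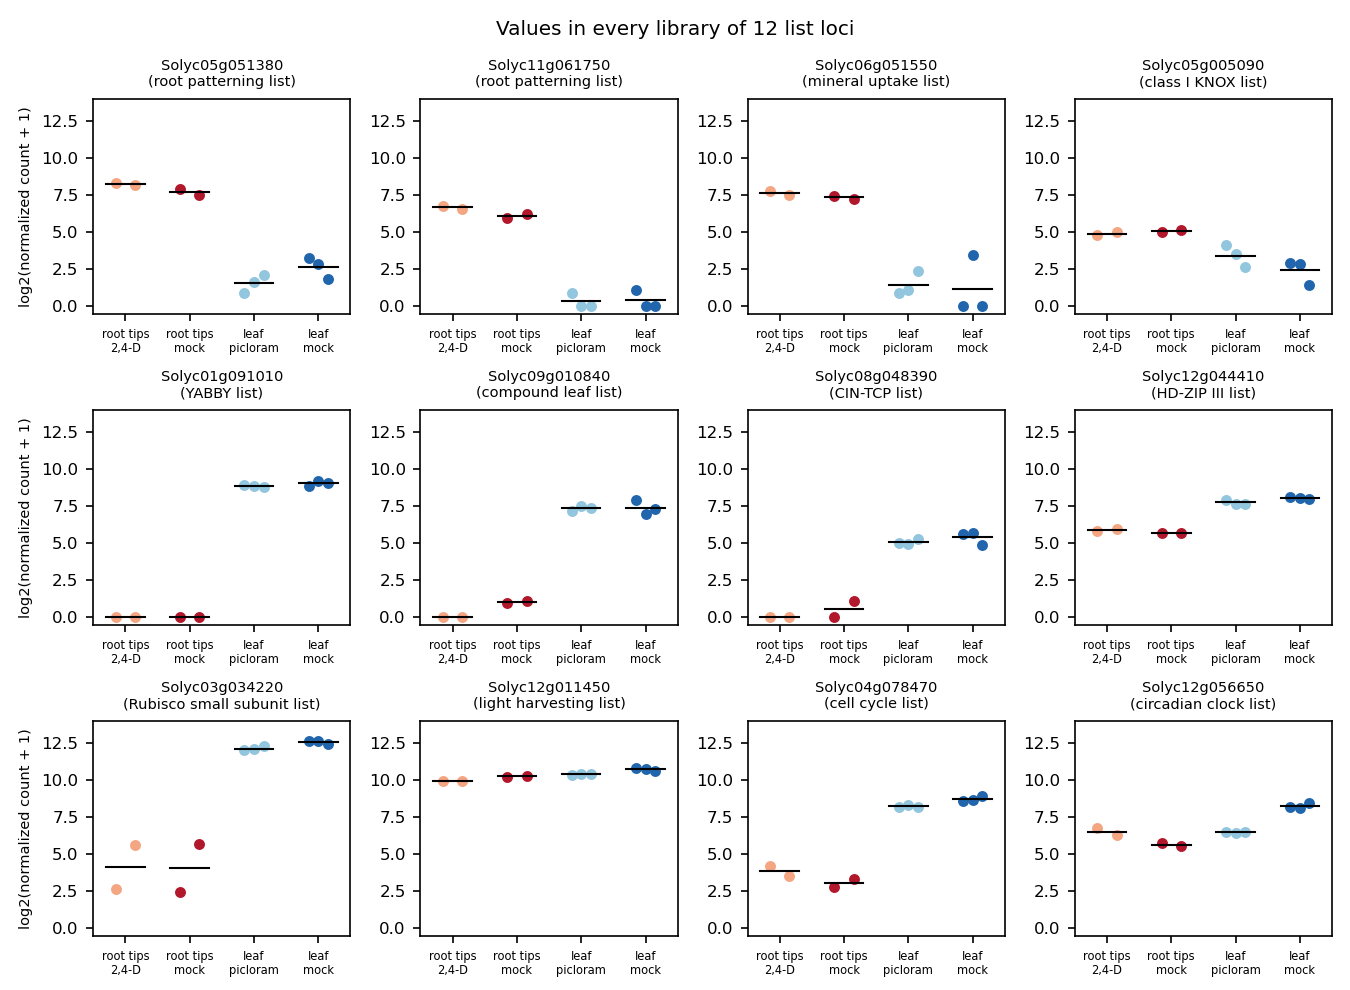
log2(normalized count + 1) in every library for 12 list loci, with 2,4-D root tips, mock root tips, picloram leaf primordia and mock leaf primordia from left to right (1 point per library, bars are means). The top row holds loci higher in mock root tips, such as Solyc05g051380 (238 and 177 in root tips); the other rows hold loci lower there, with Solyc12g011450 close in both tissues and Solyc12g056650 close in treated and apart in mock libraries.

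All tested loci of the lists for the shoot surface and its pigments were lower in root tips. The cuticle is the waxy skin of aerial organs; of 15 loci for cuticle lipids, lipid transfer proteins and epidermal regulators, 12 were tested and all 12 were lower in root tips, with a median of -4.60 against 0.12 over all loci. Of these, 11 reached the minimum in leaf only, where 82.3% of all such loci were called lower, against 29.7% over all loci. Solyc11g006250 was at 0 in both mock root libraries against 1302, 1274 and 1050 in mock leaf, the lowest difference of the lists, -10.23 ± 0.32 (adjusted p = 7.04e-10 by limma). Solyc10g075100 had 0.864 and 3.4 in mock root tips against 220, 315 and 488 in mock leaf, and lies in a tandem group where single copies are uncertain. Solyc02g080260 had 0 and 1.12 in mock root tips against 150, 89.2 and 61.8 in mock leaf, and Solyc09g014350 was at 0 in both root libraries against 64.1, 42.3 and 73.1. The sum of the list was 183 and 196 in mock root tips against 2562, 2492 and 2393 in mock leaf, and Solyc01g091630, at 159 ± 14.3 (SD, n = 2) in mock root tips and 330 ± 22.2 (SD, n = 3) in mock leaf, made up most of the root sum. The 3 untested members were at 0 in mock root tips and had at most 7.19 in mock leaf.

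Flavonoids and anthocyanins are phenolic pigments and sunscreens. Of 13 listed enzymes and bHLH regulators 12 were tested and all 12 were lower in root tips, with a median of -4.93 against 0.12 over all loci. As in the cuticle list most had entered through leaf alone, 10 of 12, where 82.3% of all such loci were called lower, against 29.7% over all loci. Solyc09g091510 had 1.71 and 1.12 in mock root tips against 815, 677 and 578 in mock leaf. Solyc05g053550 had 7.68 and 4.47 in mock root tips against 655, 545 and 624 in mock leaf. The groups are far apart at both, with differences of -8.16 ± 0.23 and -6.46 ± 0.20 (log2; adjusted p = 5.25e-10 and 7.04e-10 by limma). Solyc11g066580 was at 0 in both mock root libraries against 192, 79.1 and 149 in mock leaf, and Solyc02g081340 had 1.7 and 0 against 296, 127 and 184. Glandular trichomes, the secreting hairs of the tomato shoot, were represented by 7 acyltransferase and terpene synthase loci, of which 3 were tested, all through leaf alone, and lower in root tips; with a minimum of 50 the count was 1. Solyc06g059885 was at 0 in both mock root libraries against 93.2, 89 and 92.1 in mock leaf, and Solyc06g059930 was at 0 in both against 46.3, 9.57 and 18.3. Solyc01g105890 had 0.852 and 0 in mock root tips against 14.5, 15.8 and 18.3 in mock leaf. The other 4 trichome loci were at 0 in mock root tips and had at most 6.62 in mock leaf, and the untested flavonoid locus had at most 1.12 in mock root tips and 8.31 in mock leaf.

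Cell division loci were expressed on both sides. Of 12 cyclins, cyclin-dependent kinases and a WEE1-type kinase, all 12 were tested, 2 were higher in root tips, 5 were lower and 5 did not pass. The median difference was -0.12. Over all tested loci 34.2% were higher and 29.7% lower, and 1 of the 12 reached the minimum in leaf only. Solyc04g078470 stood out, with 5.62 and 8.58 in mock root tips against 379, 392 and 473 in mock leaf, a difference of -5.70 ± 0.23 (adjusted p = 3.99e-09 by limma). Solyc12g088650 had 134 and 153 in mock root tips against 429, 370 and 311 in mock leaf, and Solyc11g005090 had 59.7 and 54.7 against 104, 112 and 110. Solyc02g092980 was the most abundant and higher in root tips, with 427 and 398 against 303, 255 and 234 in mock leaf, as was Solyc02g082820 with 114 and 96.5 against 43.9, 72.9 and 66.7. Neither of these was called with totals made equal (adjusted p = 0.575 and 0.395 by limma), where 0 members were higher and 6 lower. Without mock root replicate 1 the higher calls numbered 1, and with a pseudocount of 5 they numbered 4.

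The circadian clock sets daily rhythms by loops of repressors, and its components swing with the hour of collection, which the labels do not give and whose part was not tested. Of 12 loci 9 were tested. In root tips 1 was higher, 7 were lower and 1 did not pass, with a median of -1.60. Over all tested loci 34.2% were higher and 29.7% lower. Of the 9, 3 reached the minimum in leaf only, where 82.3% of all such loci were called lower, and 1 in root tips only. Solyc12g056650 had 52.4 and 44.7 in mock root tips against 281, 279 and 339 in mock leaf, and Solyc03g081240 had 3.37 and 8.94 against 126, 99.99 and 60.4. Solyc12g095900 had 1.7 and 2.24 in mock root tips against 49, 41.1 and 41.7 in mock leaf, and Solyc10g005030 had 1.7 and 2.23 against 14, 10.8 and 17.5. The locus higher in root tips, Solyc04g071990, had 82.1 and 69.2 there against 27.2, 26.6 and 22.5 in mock leaf (1.53 ± 0.40, adjusted p = 0.00495 by limma). The 3 untested members had at most 11.1 in any mock library.

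The same tissue difference was fitted in the treated libraries alone, as 2,4-D root tips minus picloram leaf primordia. In the test of the mock libraries these 5 libraries entered the shared estimate of the spread and no group mean compared. Of the 5013 loci higher in mock root tips, 4184 (83.5%) were called higher there as well and 32 (0.638%) were called lower. Of the 4348 lower in mock root tips, 3539 (81.4%) were called lower and 41 (0.943%) higher. Over all 14640 loci, 34.1% were called higher and 29.2% lower in the treated libraries. Root patterning loci Solyc05g051380 (6.73 ± 0.40) and Solyc11g061750 (6.37 ± 0.41) were again far above leaf. All 46 tested photosynthesis loci, all 5 YABBY and all 12 flavonoid loci were again lower in root tips. Some other lists changed. Of the 9 tested alkaloid loci, 4 were higher and 3 lower in treated libraries, with a median of 0.20 against 1.05 in mock. The 9 tested clock loci had 2 higher and 5 lower, against 1 and 7 in mock. The strigolactone locus Solyc08g062950 had -4.38 in mock and 5.72 in treated libraries. Growth conditions and tissue still differ together in these libraries.

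The difference between the treated and the mock tissue contrasts was tested in the fit of all 10 libraries and passed at 501 loci (3.42%). Among clock loci, Solyc12g056650 differed by 0.04 ± 0.19 in treated and -2.60 ± 0.17 in mock libraries (adjusted p of the difference 0.000242 by limma). It had 106 and 75.7 in 2,4-D root tips against 87.6, 83.7 and 89.97 in picloram leaf. Solyc01g005300, chosen after its values were seen, had opposite directions, with 61.7 and 46 in 2,4-D root tips against 18.6, 10.2 and 12.5 in picloram leaf, but 63.4 and 59.3 in mock root tips against 213, 171 and 147 in mock leaf. Of the 46 tested photosynthesis loci 2 passed, Solyc02g070950 and Solyc02g065400, both named after their values were seen. Solyc02g070950 had 0.841 and 2.5 in 2,4-D root tips against 52.8, 119 and 136 in picloram leaf, but 0 and 0 in mock root tips against 232, 308 and 378 in mock leaf. Both were lower in root tips in both contrasts, by less in the treated one. None of the tested YABBY and root patterning members passed, which does not show that their contrasts were equal.

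**Figure D5:**
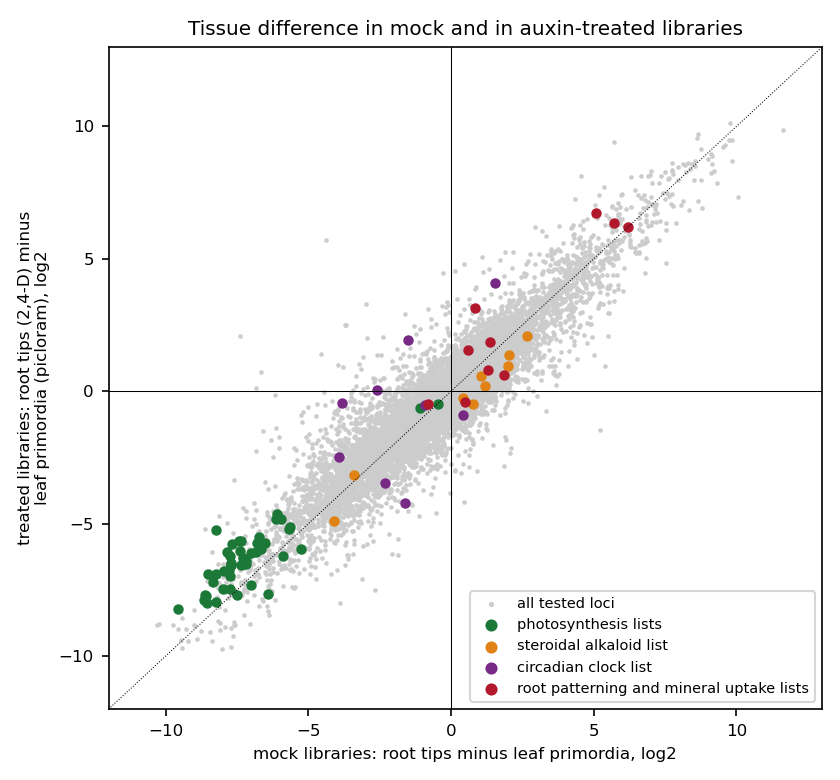
Tissue difference in the treated libraries (2,4-D root tips minus picloram leaf primordia, y axis) against that in the mock libraries (mock root tips minus mock leaf primordia, x axis), both in log2, for all 14640 tested loci (grey) and members of 4 sets of lists (coloured); the dotted line marks equal differences. Photosynthesis loci lie low on both axes, from -9.57 to -0.46 in mock, while clock loci lie farther from the line, as Solyc12g056650 with 0.04 in treated and -2.60 in mock libraries.

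Calls were spread over the genome. On the 12 chromosomes that identifiers name, 32.2% to 37.1% of tested loci were higher in root tips and 26.8% to 31.8% lower. Runs of neighbouring tested identifiers that were all called and at least 3 apart (log2) in the same direction were short: 5 runs had 5 loci or more. The longest was 10 loci lower in root tips, from Solyc02g070935 to Solyc02g071030, of which 8 are on the antenna list. On chromosome 9, 9 neighbouring tested loci were lower from Solyc09g083440 to Solyc09g089550 and 9 from Solyc09g092710 to Solyc09g097805. Runs of loci higher in root tips were 8 from Solyc03g090990 to Solyc03g093070 and 6 from Solyc07g043640 to Solyc07g044720. The chromosome 7 run lies beyond the alkaloid interval by identifier. Runs were described without a test, and neighbours with shared sequence may share reads.

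Outside the lists the widest gaps belonged to loci without a name in the sources used here. Solyc04g009590 had 7904 and 7111 in mock root tips against 0, 12.2 and 0 in mock leaf, and Solyc08g074680 had 4264 and 2627 against 2.29, 8.44 and 0. At both, leaf replicate 2 was the highest of the leaf libraries. Solyc09g084480 was at 0 in both mock root libraries against 1210.3, 1320.3 and 1246 in mock leaf, and Solyc09g062970 had 0.852 and 0 against 751, 1685 and 1241. The first pair differed by 11.63 ± 0.87 and 10.06 ± 0.67, and the second by -10.30 ± 0.40 and -9.74 ± 0.36 (log2; adjusted p at most 3.3e-07 by limma). Among loci with a mean of at least 1000, 13 of 510 in mock root tips averaged under 10 in mock leaf, and 23 of 312 in mock leaf averaged under 10 in mock root tips.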

How the data were processed

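The values are normalized gene counts, a non-negative signal that the authors deposited in 1 table of 35767 loci and 10 libraries. RNA came from a 3' end library kit per the labels' protocols; the submitters' processing notes list Salmon 0.8.2 and DESeq2 but not what each did, and the genome build is not given in the sources used here. Values are not whole reads, so depth in reads is unknown and a model for counts was replaced by one for normalized values. Groups came from sample titles.

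Loci with at least 10 in at least 2 of the 5 mock libraries were tested on log2(value + 1), which understates the change of low loci, with limma 3.58.1 (R 4.3.3): 1 mean per group over all 10 libraries, mean-variance trend, 6 residual and 5.63 prior degrees of freedom, contrast mock root minus mock leaf, Benjamini-Hochberg adjusted p under 0.05, 2-sided. The script was tested on simulated data. The treated contrast was fitted on the 5 treated libraries alone.

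The members, lists and tests were chosen with earlier results of these data known. Every member of lists of up to 5 was named; in longer lists, the 4 called members with the largest differences and the most abundant; outside lists, the 2 highest and 2 lowest called loci. A locus further named says so or bears on its list's count. Gene symbols came from RefSeq (SLM_r2.1, 41476 rows, 0 Solyc identifiers), used only for the check by chromosome. Alternatives were other scalings, pseudocounts of 0.5 and 5, no minimum or a minimum of 50, the mock libraries alone, robust moderation, a replicate block and each mock library left out; leaving out the libraries numbered 2 was added after seeing the data.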

Additional observations from a re-analysis of the deposited data

Results flagged for a closer look

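At 13 of the 136 tested list loci the tissue difference in the treated libraries differed from that in the mock libraries by the test of the difference itself (treated minus mock, log2, limma, adjusted p under 0.05 over all 14640 loci, of which 3.42% passed). The rule for named loci gave 6 of them, and the other 7 were added after their values were seen. In the clock list, Solyc03g081240 had a difference between the contrasts of 3.39 ± 0.58 (adjusted p = 0.00904), with 10.3 and 8.65 in 2,4-D root tips against 11.1, 15.9 and 12.5 in picloram leaf. Solyc12g056650 had 2.64 ± 0.25 (adjusted p = 0.000242). In the alkaloid list, Solyc07g043420 had -1.27 ± 0.24 (adjusted p = 0.0132): the tissue difference was -0.48 in the treated libraries, with 3353 and 3476 in 2,4-D root tips against 3842, 5442 and 5158 in picloram leaf, and 0.79 in the mock libraries. Solyc05g053550 of the flavonoid list had -1.65 ± 0.29 (adjusted p = 0.00937), and Solyc01g105890 of the trichome list -2.52 ± 0.54 (adjusted p = 0.0278), with 73.3, 90.5 and 54.5 in picloram leaf against 14.5, 15.8 and 18.3 in mock leaf. Solyc08g062950 of the strigolactone list had 10.10 ± 2.10 (adjusted p = 0.0238), and its values split within mock leaf.

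Of the 7 added loci, 3 are on the clock list. Solyc10g005080 had a difference between the contrasts of -2.61 ± 0.23 (adjusted p = 0.00017), with 35.4 and 36.9 in 2,4-D root tips against 766, 702 and 599 in picloram leaf, and 25 and 27.6 in mock root tips against 84.1, 89.6 and 71.8 in mock leaf. Solyc01g005300 had 3.41 ± 0.38 (adjusted p = 0.000671) and Solyc04g071990 had 2.56 ± 0.56 (adjusted p = 0.0301). Solyc07g043460 of the alkaloid list had -1.04 ± 0.18 (adjusted p = 0.00949), and Solyc01g091630 of the cuticle list -0.76 ± 0.18 (adjusted p = 0.043). Among photosynthesis loci, Solyc02g070950 had 2.99 ± 0.60 (adjusted p = 0.0194) and Solyc02g065400 had 1.31 ± 0.25 (adjusted p = 0.0142). Compound, tissue and growth conditions differ together in the treated contrast and cannot be told apart.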

How the results depend on the processing

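The call count of 9361 lay between 8693 and 9574 under the other scalings, pseudocounts, the mock libraries alone and robust moderation. With no minimum it was 10769 of 24173 loci. With a minimum of 50 it was 6011 of fewer loci tested, 2249 of them lower in root tips. With totals made equal the higher calls were 3011, and without the mock libraries numbered 2 they were 3247; leaving out each mock library in turn gave 7083 to 8940 calls, 3348 to 4937 higher and 3735 to 4012 lower. Deviations of mock root and mock leaf libraries of the same replicate number had correlations of -0.011 and -0.0051. With 2 mock root libraries the root deviations mirror each other, so these values cannot decide whether equal numbers were paired. A fit with the replicate block called 9083. Between mock and 2,4-D root libraries of the same number the correlation was 0.109. Of the 207 list loci in the table, 124 were called, and each alternative called a count within 1.5 times of that. Calls of the same direction in the treated libraries numbered 7723, and 7694 in the fit of all 10 libraries. Loci at 0 in mock leaf and in mock root numbered 52 and 138 where the other tissue had to average 50 in place of 10, which admits fewer loci by construction. Among 66 named loci tested, 8 changed their call in some setting that still tested them, and 1 reversed, Solyc07g043420 with -0.15 after quantile normalization. Calls lost because a locus was no longer tested, as for all 3 CIN-TCP loci with a minimum of 50, were not counted as changed. Leaving out a root library removes loci seen in root tips alone, since 2 libraries must reach the minimum; the cause of the other changes was not tested. Depth in reads is unknown, and with 2 root libraries the test rests on a spread shared with the other groups.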

Other observations

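A few loci were high in 1 mock library and near 0 in its replicates. Solyc03g118160, on the compound-leaf list, had 0 and 1.12 in mock root tips, 7.76, 8.53 and 3.81 in picloram leaf and 0.703, 2470 and 1.04 in mock leaf; with 1 library at 10 or more it was not tested. Solyc06g053470 had 2023 in mock leaf replicate 3 alone, and Solyc03g121030 had 1502 in mock leaf replicate 1 alone. Solyc01g106440 had 1605 in mock leaf replicate 1 and at most 1.44 in the other mock leaf libraries, with 197 and 136 in mock root tips. Solyc12g005090 had 1769 in mock leaf replicate 3 and 1698 in 2,4-D root replicate 1, and at most 1.08 in the other 8 libraries. In all, 6 loci had at least 1000 in 1 mock library and under 20 in the others of its group.

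Untested members that are low in mock root tips were not all low in treated ones. Solyc09g010200 of the suberin list had 18.8 and 12.3 in 2,4-D root tips against 1.7 and 1.12 in mock root tips, and was at 0 in all leaf libraries. Solyc12g005670 of the mineral list had 34.3 and 23.5 in 2,4-D root tips against 7.5 and 4.42 in mock root tips, and was also at 0 in all leaf libraries.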
